A study of Mus musculus with 12 samples.

Results

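The 40 genes described here are targets of the nuclear receptor PPAR-alpha and enzymes of fatty acid oxidation, followed by name in mouse liver. They were taken from a written list of symbols, and all 40 were among the 24527 gene symbols of the count table. All 40 passed the filter on low counts and were tested among 13204 genes. The list holds 2 regulators, 4 genes of fatty acid uptake and activation, 4 of the carnitine shuttle and 10 of mitochondrial beta-oxidation. It also holds 3 genes of electron transfer, 8 of peroxisomal oxidation, 4 acyl-CoA thioesterases, 1 ketone body enzyme and 4 other PPAR-alpha targets.

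PPAR-alpha is a fatty acid receptor of the hepatocyte nucleus. Bound to its partner RXR, it raises transcription of genes for the uptake, activation and oxidation of fatty acids, most strongly in fasting. Long fatty acids are joined to coenzyme A, carried into mitochondria as carnitine esters and shortened there step by step. Very long and branched ones are first shortened in peroxisomes, and thioesterases release free acids from their coenzyme A esters.

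The study sequenced messenger RNA from whole liver of mice aged 39 weeks to ask whether in vitro fertilization (IVF) leaves effects on the adult liver that depend on sex. All animals had CF1 mothers and B6SJL fathers. They had been conceived naturally or by IVF, where egg and sperm meet in a dish, following a Jackson Laboratory protocol. Females and males of each kind of conception gave 4 groups with 3 libraries each. No genotype or drug differed between groups. The labels do not say whether the libraries of a group came from separate litters, or from separate animals, so p-values measure the spread between these libraries. Replicate numbers only name a library. The titles of IVF female replicate 1 and IVF male replicate 2 share the first number of their code, and the labels do not say what it marks.

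Library totals ranged from 6826534 to 27832271 counts. The 2 smallest libraries, IVF female replicate 1 and natural female replicate 2 (8056230 counts), stand apart from the other female libraries in levels of GC-rich genes, and results that rest on them are given with and without them. Levels are given in CPM, counts scaled for depth. With a count of 0, a level of up to 0.439 CPM remains possible at the lowest depth and 0.108 CPM at the highest. These limits cover counting error only. The summed level of 10 hepatocyte markers was 79600 to 115000 CPM in every library, against 0.361 to 2.09 CPM for 10 muscle markers. Among 10 adipocyte markers, Lep, Retn and Ucp1 had no counts in any library and Adipoq, Plin1, Cfd and Cidea stayed under 1 CPM. Since this is bulk tissue, fewer cells of a type and less RNA per cell cannot be told apart.

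Per kilobase of exon, mean levels of these genes ran from 2.36 to 6470 CPM per kilobase. Fabp1, the abundant fatty acid binding protein of the liver cytosol, was far ahead at 6470 ± 2160 CPM per kilobase (SD, n = 12). The peroxisomal thiolase gene Acaa1b followed at 377 ± 124 and the mitochondrial thiolase gene Acaa2 at 302 ± 47.0 CPM per kilobase (SD, n = 12). The neighbours Acaa1b and Acaa2 in that order did not differ beyond their spread. Ppara itself stood in the ninth place at 108 ± 32.2 CPM per kilobase (SD, n = 12). Pdk4, the kinase that switches off pyruvate dehydrogenase when fat is burned, was lowest at 2.36 ± 1.26 CPM per kilobase (SD, n = 12). By plain CPM, not scaled by length, 12 of the 40 genes had a mean from 10 to under 100, 2 a mean under 10 and the others a higher mean.

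The 40 genes tended to be high or low together in the libraries of IVF females. IVF female replicate 1, the smallest library, had the lowest level of 22 of the 40 genes, and IVF female replicate 2 had the highest level of 14. How often these libraries were lowest or highest over all genes is not given here. The median deviation from each gene's mean over the 12 libraries was -0.54 (log2) in IVF female replicate 1, 0.39 in replicate 2 and 0.18 in replicate 3. It lay between -0.04 and 0.14 in natural females, between -0.21 and 0.18 in natural males and between -0.08 and 0.13 in IVF males. The mean over libraries was 0.01 ± 0.48 in IVF females (SD, n = 3), against 0.05 ± 0.09 in natural females, -0.02 ± 0.20 in natural males and 0.05 ± 0.11 in IVF males. The wide spread in IVF females rested on replicate 1, and without it their mean was 0.28 ± 0.15 (SD, n = 2).

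**Figure D1:**
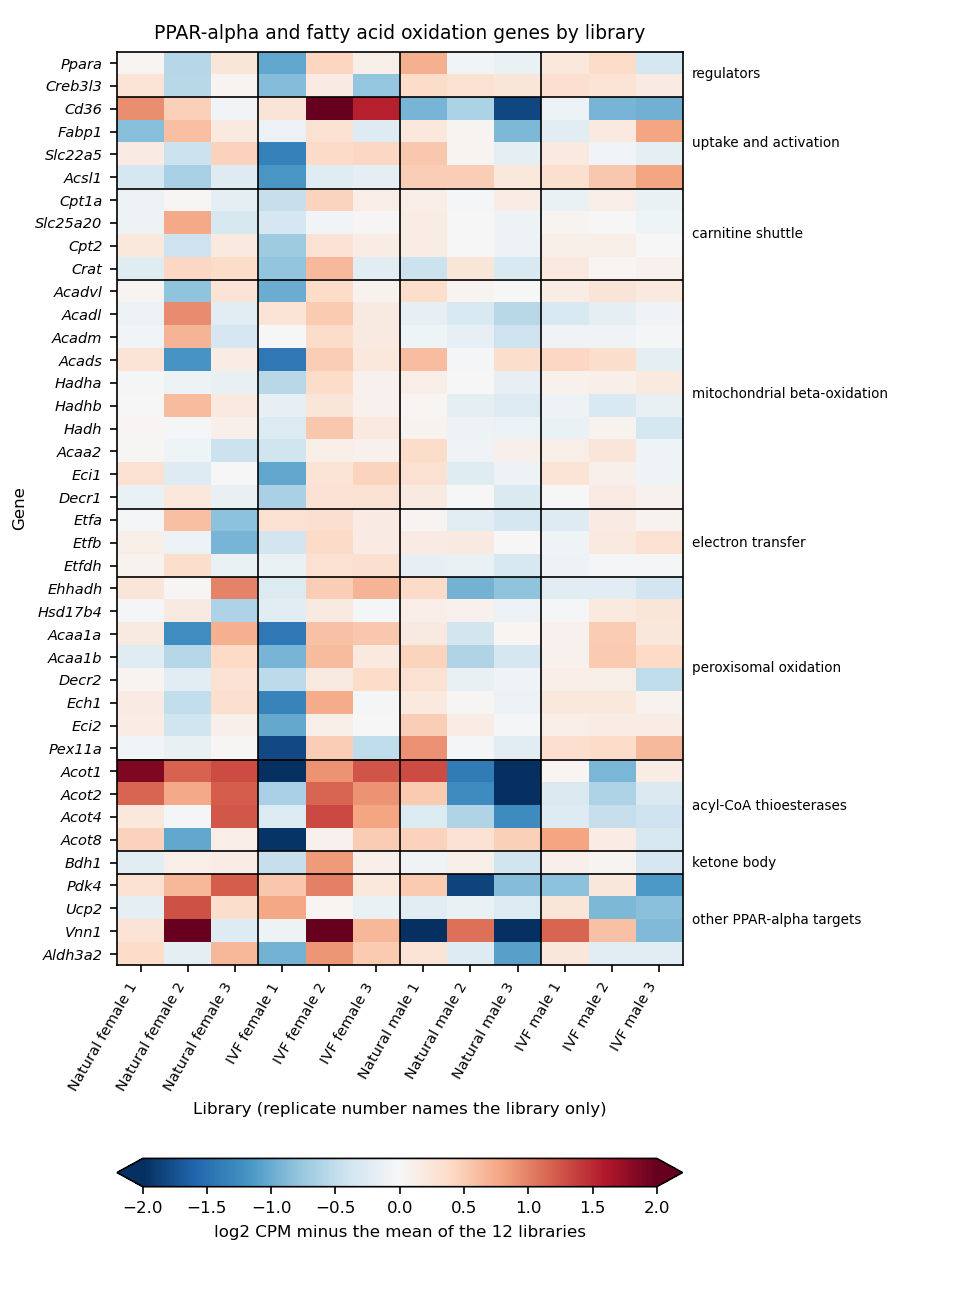
Level of each of the 40 genes (vertical axis, ordered by role) in each of the 12 libraries (horizontal axis), as its difference in log2 CPM from the mean of all libraries, with blue below and red above the mean. The column of IVF female replicate 1 is blue for most genes (median -0.54) and that of IVF female replicate 2 red (median 0.39). Thioesterase genes are low in natural male replicate 3 (deviation of this role -1.0) and lower still in IVF female replicate 1 (-1.29).

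Levels in the 2 smallest libraries differed with GC content. In the 2 smallest libraries, the 20 genes above the list's median GC content of 49.7% were lower than in the other 4 female libraries by a median log2 difference of -0.84, and 19 of them were lower. The 20 genes at or under that GC content had a median difference of -0.18, and 12 were lower. Over all tested genes with a known GC content, the same split gave -0.34 and 0.20. The part of GC content or depth in the differences between conception groups was not tested. In males, whose libraries are all deeper than these 2, the median within-group SD of the 40 genes was 0.242 (log2), against 0.273 for all tested genes and 0.207 for 3706 genes of similar level.

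The first comparison asked whether conception by IVF changed the pathway in adult females. No gene of the 40 was called by edgeR's quasi-likelihood test at a Benjamini-Hochberg adjusted p under 0.05, and 0% of all genes tested were called. DESeq2 called 0 of the 40 and 4 of all genes (0.0303%). At an unadjusted p under 0.05 there was 1 of the 40, Cd36, against 3.7% of all genes. Of the 40 genes, 22 had a log2 fold change above 0 (47.8% of all genes), with a median of 0.011 beside -0.015 over all genes. In none of the 40 were the IVF libraries all above or all below the natural ones, a separation seen in 7.42% of all genes. The fitted values ran from -0.92 for Acot1 to 1.06 for Cd36.

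In males, likewise, the same question was put to 3 natural and 3 IVF libraries. None of the 40 genes was called by edgeR at an adjusted p under 0.05, against 1 of all genes (0.00757%). DESeq2 called 0 of the 40 and 5 of all genes (0.0379%), and 0 of the 40 had an unadjusted p under 0.05 in edgeR against 2.69% of all genes. A log2 fold change above 0 was found for 25 of the 40 (51.6% of all genes), with a median of 0.078 beside 0.010 over all genes. The groups did not overlap for 2 of the 40, Etfdh and Acadm, against 8.91% of all genes. The difference between the IVF effects in males and females was tested as an interaction. It gave 0 calls among the 40 and 0 among all genes (0%) in edgeR, and 0 and 9 (0.0682%) in DESeq2. No gene of the 40 had an unadjusted interaction p under 0.05, against 3.87% of all genes. Beside the male comparison, the summed level of 10 Kupffer cell markers was 387 to 420 CPM in natural males and 205 to 320 in IVF males. The 10 hepatocyte markers summed to 93300 to 105000 CPM in natural males and 79600 to 87900 in IVF males. None of either list was called, and the part of these cells in the male values was not tested.

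The direction of the list as a whole turned with single libraries. With all 12 libraries, 47.8% of all genes had a fold change above 0 in females and 51.6% in males. The shares over all genes in the fits below are not given here. The median deviation over all genes was -0.017 (log2) in IVF female replicate 1 and -0.01 in replicate 2. Without IVF female replicate 1, 33 of the 40 genes had a fold change above 0 in females, with a median of 0.26 on the log2 scale. Without IVF female replicate 2, 5 of 40 did, with a median of -0.22. With both smallest libraries left out, 33 were above 0 and the median was 0.20. In males, 35 were above 0 without natural male replicate 1 (median 0.20) and 17 without natural male replicate 3 (median -0.04). With library size alone in place of TMM scaling, 37 of 40 were above 0 in males (median 0.21), while the median of all genes moved to 0.143. No call among the 40 appeared in either sex under any of these settings.

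**Figure D2:**
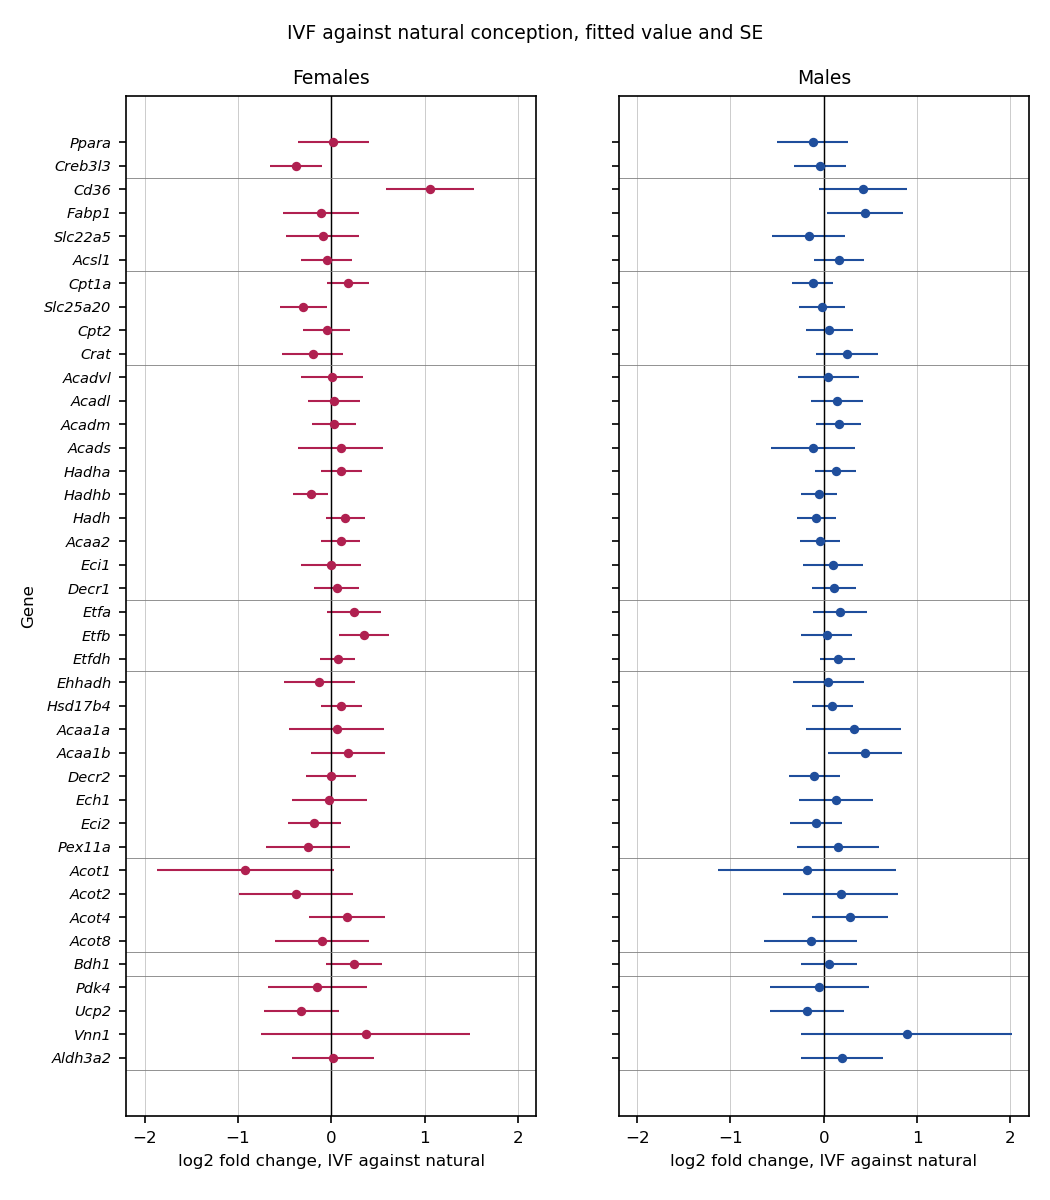
Fitted log2 fold change of IVF against natural conception (horizontal axis) for each of the 40 genes (vertical axis, grey lines between roles), in females on the left and males on the right. Points are the fitted values and bars 1 SE from edgeR. Cd36 in females (1.06) lies farthest right there, and the widest bars belong to Vnn1 and Acot1.

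Among the regulators, Ppara, which encodes the receptor, was at 404, 266 and 468 CPM in natural females and 193, 534 and 430 in IVF females. Natural males had 646, 382 and 359 CPM and IVF males 459, 507 and 311. All 4 groups overlapped, with the lowest value in IVF female replicate 1. Creb3l3, a liver transcription factor made at the endoplasmic reticulum that acts with PPAR-alpha in fasting, was at 276, 155 and 238 CPM in natural females and 126, 256 and 134 in IVF females. Its male libraries were tightly grouped, at 295, 282 and 271 CPM after natural conception and 290, 277 and 256 after IVF. Its log2 fold change after IVF in females was -0.38 ± 0.28 (SE), with an adjusted p of 1 in edgeR (Benjamini-Hochberg). The receptor's partner Rxra ranged over 285 to 579 CPM and did not pass in any comparison.

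Cd36, a membrane transporter of fatty acids that PPAR-alpha induces in liver, was the gene of the list that stood out. Natural females had 80.3, 58.6 and 40.3 CPM and IVF females 50.2, 198 and 124 CPM. Natural males had 22.1, 27.2 and 11.9 CPM and IVF males 38.6, 22.0 and 21.6 CPM. Every female library was above every male library, and IVF female replicates 2 and 3 were the highest of all. The IVF effect in females was 1.06 ± 0.47 (SE, log2) with an unadjusted p of 0.0431 and an adjusted p of 1 in edgeR (Benjamini-Hochberg). It was 0.55 without IVF female replicate 2 and 1.46 without IVF female replicate 1. In males it was 0.42 ± 0.47 (SE), and the interaction, male effect minus female effect, was -0.63 ± 0.66 (SE) with an adjusted p of 1 in edgeR.

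Fabp1 varied within every group. It was at 1880, 5170 and 3880 CPM in natural females and 3120, 4170 and 2820 in IVF females. Natural males had 3940, 3530 and 1820 CPM and IVF males 2890, 3880 and 5860. The fold change after IVF in males was 0.44 ± 0.41 (SE, log2), with an adjusted p of 1 by edgeR's test. Slc22a5, the plasma membrane carnitine carrier, ranged over 12.9 to 47.5 CPM with the lowest value in IVF female replicate 1.

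Acsl1, the main liver enzyme that joins long fatty acids to coenzyme A, divided the libraries by sex and not by conception. Natural females had 1080, 875 and 1150 CPM and IVF females 616, 1170 and 1210 CPM. Natural males had 1940, 1940 and 1590 CPM and IVF males 1720, 1990 and 2390 CPM. No male library was as low as the highest female library.

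The carnitine shuttle showed little of either comparison. Cpt1a, the rate-setting entry enzyme that loads fatty acids onto carnitine, was at 384, 415 and 358 CPM in natural females and 299, 560 and 451 in IVF females. It was at 451, 403 and 455 CPM in natural males and 376, 450 and 375 in IVF males, so that the 4 groups overlapped. Slc25a20, the carrier that brings carnitine esters across the inner membrane, was at 87.6, 160 and 75.2 CPM in natural females and 75.1, 90.8 and 96.1 in IVF females. Its male libraries lay between 88.0 and 105 CPM. The high value is natural female replicate 2, the second smallest library. The fitted change of Slc25a20 after IVF in females, -0.30 ± 0.25 (SE, log2; adjusted p of 1 in edgeR), became 0.10 without that library. Cpt2, which returns the fatty acid to coenzyme A, ranged over 74.7 to 151 CPM and Crat, which acts on short acyl groups, over 30.3 to 82.0 CPM. All 4 genes of the shuttle had sex differences within -0.12 and 0.05 (log2), and none was called.

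In mitochondrial beta-oxidation, 8 of 10 genes had an IVF fold change above 0 in females (47.8% of all genes) and 6 of 10 in males (51.6%). All values lay between -0.22 and 0.16 (log2). Acadm, the dehydrogenase of medium-chain fatty acids, was at 329, 545 and 269 CPM in natural females and 340, 438 and 388 in IVF females. In males Acadm was at 321, 305 and 256 CPM after natural conception and 324, 324 and 335 after IVF. The IVF male libraries of Acadm lay just above the natural ones, with a fold change of 0.16 ± 0.24 (SE, log2) and an adjusted p of 1 in edgeR. Hadhb, a subunit of the trifunctional protein, was at 76.6, 119 and 88.3 CPM in natural females and 69.0, 91.7 and 81.8 in IVF females. Natural males had 79.2, 67.1 and 64.1 CPM of Hadhb and IVF males 72.0, 62.1 and 69.7. Its change after IVF in females was -0.22 ± 0.19 (SE, log2; adjusted p of 1 in edgeR) and became 0.09 with both smallest libraries left out. Hadha, which encodes the partner subunit, spanned 226 to 426 CPM.

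Of the other genes of this group, Acads, the short-chain dehydrogenase, was the most uneven. Its values of 51.3 CPM in natural female replicate 2 and 43.3 in IVF female replicate 1 lay apart from 101 to 178 CPM in the other 10 libraries. Acadvl, the very long chain dehydrogenase, showed the same 2 libraries lowest, at 238 and 209 CPM against 416 to 535 in the rest. Acadl, the long-chain dehydrogenase, did the opposite, with its highest value of 361 CPM in natural female replicate 2. Hadh, Acaa2, Eci1 and Decr1, which carry out or prepare later steps of the cycle, had highest values 1.73 to 2.80 times their lowest.

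The electron transfer genes, which pass electrons from the dehydrogenases to the respiratory chain, were each above 0 after IVF in both sexes, and none was called. Over all genes, 47.8% were above 0 in females and 51.6% in males. The deviation of this role from the mean of all libraries was 0.05, 0.26 and -0.61 (log2) in natural females. It was -0.30, 0.14 and 0.11 in IVF females, so that natural female replicate 3 alone lay below all of them. Etfb was at 211, 180 and 103 CPM in natural females and 151, 256 and 220 in IVF females, a log2 fold change of 0.35 ± 0.27 (SE; adjusted p of 1 in edgeR). In males Etfb was at 218, 222 and 195 CPM after natural conception and 184, 223 and 242 after IVF. Etfdh was at 252, 309 and 220 CPM in natural females and 219, 298 and 300 in IVF females. In males it was at 215, 220 and 192 CPM after natural conception and 225, 238 and 235 after IVF, a change of 0.15 ± 0.19 (SE, log2; adjusted p of 1 in edgeR). Etfa spanned 93.3 to 251 CPM, with both extremes in natural females.

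Ehhadh, the bifunctional enzyme of peroxisomal oxidation and a classical PPAR-alpha target, was at 376, 325 and 632 CPM in natural females and 264, 448 and 507 in IVF females. In males it was at 416, 166 and 183 CPM after natural conception and 271, 276 and 245 after IVF. Natural male replicate 1 was well above the other natural males, and the sexes overlapped. Acaa1b was at 591, 472 and 922 CPM in natural females and 366, 1090 and 797 in IVF females. Acaa1b reached 957, 460 and 553 CPM in natural males and 743, 1010 and 918 in IVF males, a change of 0.44 ± 0.40 (SE, log2; adjusted p of 1 in edgeR). The near-identical Acaa1a ranged over 83.3 to 369 CPM. Pex11a, a membrane protein of dividing peroxisomes, ranged over 9.94 to 65.4 CPM, with its lowest value in IVF female replicate 1 and its highest in natural male replicate 1. Ech1, Eci2, Decr2 and Hsd17b4 had highest values 1.82 to 4.23 times their lowest, and no peroxisomal gene passed between the conception groups.

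The thioesterase genes Acot2, Acot1 and Acot4 lie next to each other on mouse chromosome 12, all on the plus strand of GRCm38: Acot2 at chr12:83987861-83993873, Acot1 at chr12:84009490-84018371 and Acot4 at chr12:84038379-84048601. Acot1 and Acot2 encode cytosolic and mitochondrial enzymes for long acyl chains, and their coding sequences are 95.3% identical over 1236 aligned bases. The start of the aligned coding region of each is shown so that their likeness can be seen. The bases come from GENCODE M21 transcripts, coding bases 1 to 90 of Acot1 and 124 to 213 of Acot2, and capitals mark the 11 bases at which they differ.
Acot1: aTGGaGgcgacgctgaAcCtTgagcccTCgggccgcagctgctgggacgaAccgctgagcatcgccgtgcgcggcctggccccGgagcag
Acot2: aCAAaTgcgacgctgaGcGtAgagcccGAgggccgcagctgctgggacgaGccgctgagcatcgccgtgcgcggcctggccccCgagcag
Of the windows of 50 bases in the Acot1 transcript, 23.7% were also found in Acot2, and how the authors treated reads that match several genes is not given in the sources used here. Counts of the 2 genes are therefore uncertain. The same holds for Acaa1a and Acaa1b, which shared 34.0% and 35.5% of their windows with each other, and for Slc22a5, which shared 26.9% with Slc22a21. Hadhb shared 61.5% of its windows with the processed pseudogene Gm13910, and Etfb shared 67.3% with the overlapping locus Gm45233, so that their counts are uncertain too. With the counts of the pair summed, and those of Acaa1a and Acaa1b likewise, the number of pathway genes called was the same in each of the 7 comparisons.

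Acot1 was at 114, 70.8 and 77.4 CPM in natural females and 4.01, 58.4 and 75.0 in IVF females. The 3 natural males had 77.7, 11.9 and 4.74 CPM and the IVF males 32.0, 16.6 and 34.8. The low female value rests on 27 counts in IVF female replicate 1, where the count of Acot1 was 0.409 times that of Acot2, against 1.67 to 3.51 times in the other 11 libraries. Without IVF female replicate 1, females had 58.4 to 114 CPM, and of the males only natural male replicate 1 lay in that range. The change after IVF in females, -0.92 ± 0.95 (SE, log2; adjusted p of 1 in edgeR), was -0.37 without IVF female replicate 1. Acot1 had a highest value 28.6 times its lowest, and its within-group SD of 1.58 (log2) was larger than that of 99.3% of all genes tested.

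Acot2 was at 34.4, 26.0 and 35.6 CPM in natural females and 9.80, 34.5 and 28.7 in IVF females. Male levels of Acot2 were 22.2, 6.44 and 2.53 CPM after natural conception and 12.6, 9.99 and 12.6 after IVF. The same libraries as for Acot1 were out of place, IVF female replicate 1 low and natural male replicate 1 high. Acot4, a peroxisomal thioesterase, was at 55.6, 46.6 and 114 CPM in natural females and 39.8, 120 and 82.7 in IVF females. Male levels of Acot4 were 39.9, 31.7 and 20.2 CPM after natural conception and 40.3, 35.1 and 36.2 after IVF. Only IVF female replicate 1 reached into the male range. The peroxisomal thioesterase gene Acot8, which lies on chromosome 2, was lower throughout, at 2.08 to 14.0 CPM, with its lowest values in the 2 smallest libraries.

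Bdh1, which interconverts the ketone bodies acetoacetate and beta-hydroxybutyrate, ranged over 187 to 468 CPM and did not pass in any comparison. Vnn1, a pantetheinase and a sensitive PPAR-alpha target, was the least steady gene of the list. It was at 29.6, 101 and 20.5 CPM in natural females and 23.0, 132 and 38.9 in IVF females. Male levels of Vnn1 were 2.06, 52.8 and 2.29 CPM after natural conception and 55.4, 36.8 and 13.3 after IVF. Its highest value was 64.2 times its lowest, and its within-group SD of 1.67 (log2) exceeded that of 99.5% of all genes. The IVF change in males of 0.89 ± 1.13 (SE, log2; adjusted p of 1 in edgeR) was 4.00 without natural male replicate 2 and 0.35 without either of the other natural males. Pdk4 was at 8.66, 11.1 and 16.2 CPM in natural females and 10.2, 14.1 and 8.08 in IVF females. Male levels of Pdk4 were 10.1, 1.95 and 3.83 CPM after natural conception and 3.98, 8.17 and 3.15 after IVF. Ucp2, an uncoupling protein, ranged over 15.7 to 70.2 CPM, and Aldh3a2, which oxidizes fatty aldehydes, over 173 to 672 CPM.

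**Figure D3:**
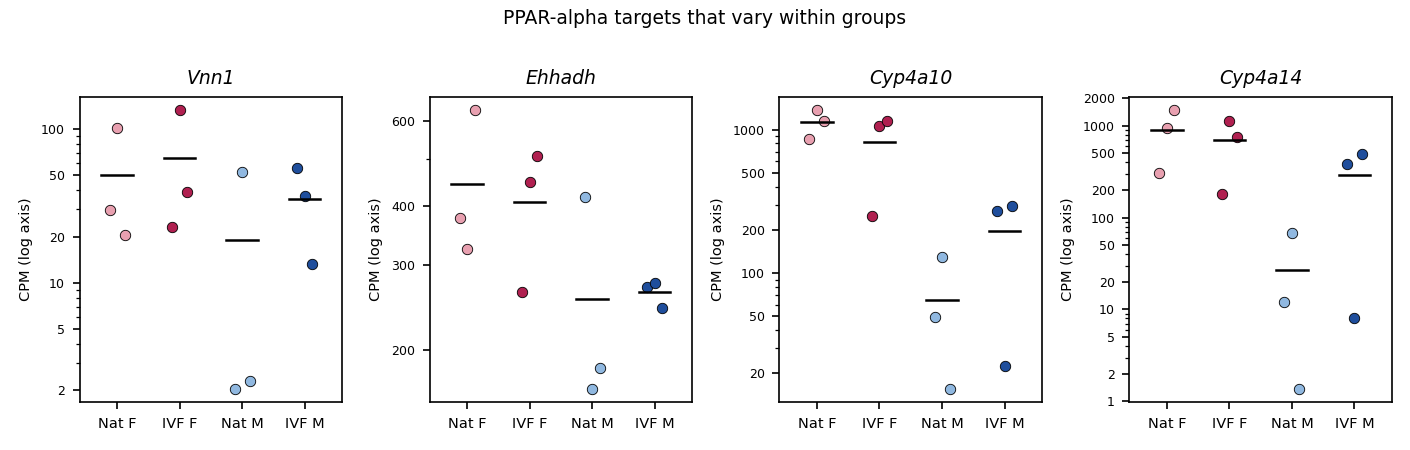
Level in CPM (vertical log axis) of Vnn1, Ehhadh, Cyp4a10 and Cyp4a14 in each library, by group on the horizontal axis (Nat natural, F female, M male). Points are libraries and black lines group means. Cyp4a14 runs from 1.38 to 487 CPM within males, and Vnn1 from 2.06 to 55.4.

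Cd36, Acsl1 and Acot4 differed between males and females when both kinds of conception were averaged. By edgeR's quasi-likelihood test 3 of the 40 were called at a Benjamini-Hochberg adjusted p under 0.05, against 7.2% of all genes. Acsl1 was higher in males (3.57% of all genes were called higher), and Cd36 and Acot4 were lower (3.63% of all genes). An unadjusted p under 0.05 was found for 10 of the 40, against 23.6% of all genes. The median log2 difference, male minus female, was 0.009 beside -0.011 over all genes, and 21 of 40 were above 0 (49% of all genes). DESeq2 called 6 of the 40, adding Acadl, Pdk4 and Acot2, against 12.8% of all genes. In both tests the share of the list that was called was near that of all genes.

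Cd36 was 3.65-fold lower in males, a log2 difference of -1.87 ± 0.34 (SE) with an adjusted p of 0.00706 in edgeR (Benjamini-Hochberg). Females ranged over 40.3 to 198 CPM and males over 11.9 to 38.6 CPM. The sexes did not overlap for Cd36 or for Acsl1, 2 of the 40 genes, against 5.75% of all genes. Cd36 passed in each alternative and each leave-out, with adjusted p from 1.98e-06 to 0.0262. Within IVF animals the difference was -2.18 ± 0.48 (SE) with an adjusted p of 0.0391 in edgeR, where 1 of the 40 and 2.19% of all genes were called, and 1.28% of all genes were called lower. That call was lost in 7 of the 12 fits without a library (adjusted p up to 0.183): without IVF female replicate 2 or 3, any of the IVF males, or natural male replicate 1 or 2. Within natural animals the difference was -1.55 ± 0.47 (SE) with an adjusted p of 0.145 in edgeR, where 0 of the 40 and 1.77% of all genes were called. Of the 40, 7 had an unadjusted p under 0.05 there, against 14.9% of all genes, and DESeq2 called 2, Cd36 and Acsl1, against 5.13%.

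Acsl1 was 1.89-fold higher in males, a log2 difference of 0.92 ± 0.19 (SE) with an adjusted p of 0.015 in edgeR (Benjamini-Hochberg). Females had 616 to 1210 CPM and males 1590 to 2390. Its call also held in each alternative and leave-out, with adjusted p up to 0.0459. The difference was 0.82 ± 0.27 (SE) within natural animals (adjusted p of 0.178 in edgeR) and 1.03 ± 0.27 within IVF animals (adjusted p of 0.0863).

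Acot4 was 2.27-fold lower in males, a log2 difference of -1.18 ± 0.29 (SE) with an adjusted p of 0.0341 in edgeR (Benjamini-Hochberg). The call was lost, with adjusted p up to 0.0904, without IVF female replicate 2 or 3, natural female replicate 3, any IVF male, or natural male replicate 2 or 3. Females had 39.8 to 120 CPM and males 20.2 to 40.3. The difference was -1.24 ± 0.42 (SE) within natural and -1.13 ± 0.42 within IVF animals, with adjusted p of 0.186 and 0.222 in edgeR. Acot2, at -1.35 ± 0.44 (SE; adjusted p 0.0907), and Pdk4, at -1.13 ± 0.38 (SE; adjusted p 0.0967), did not pass in edgeR. Both passed without natural male replicate 1. Acadl had a difference of -0.58 ± 0.20 (SE), Ehhadh -0.71 ± 0.27, Ucp2 -0.74 ± 0.28, Creb3l3 0.51 ± 0.20 and Hadhb -0.34 ± 0.14, with adjusted p from 0.102 to 0.159 in edgeR.

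**Figure D4:**
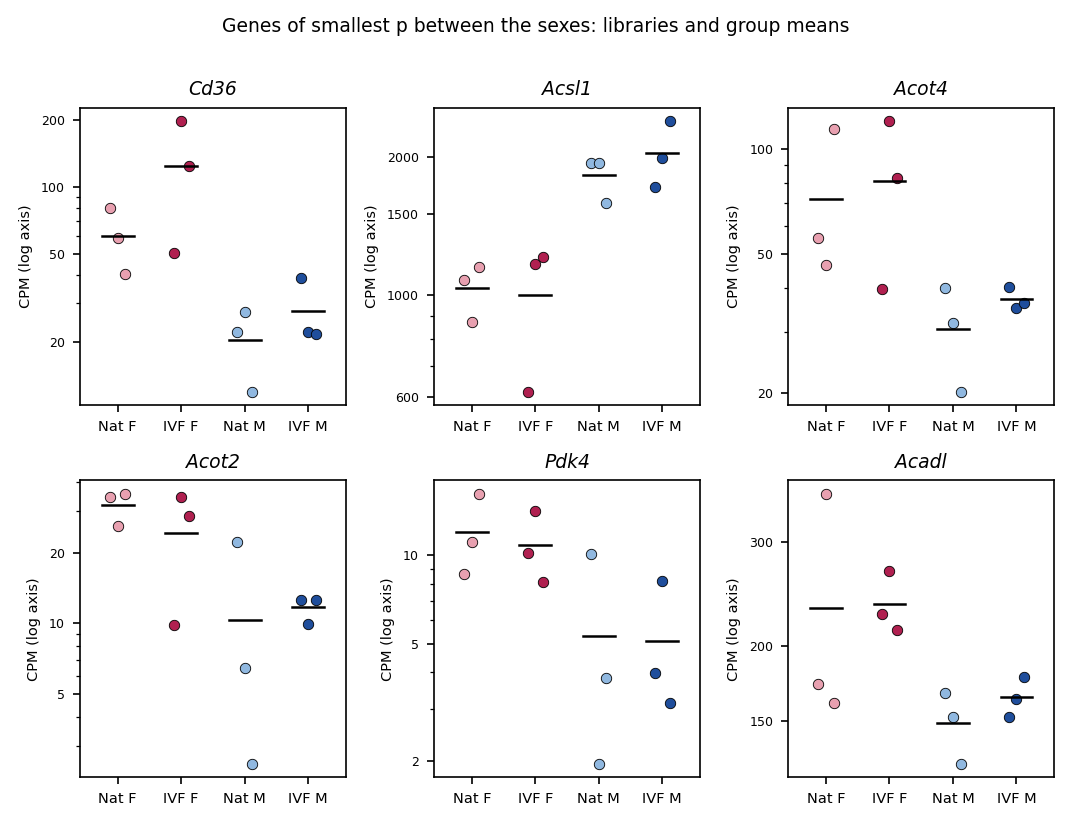
Level in CPM (vertical log axis) of Cd36, Acsl1, Acot4, Acot2, Pdk4 and Acadl in each library, by group on the horizontal axis (Nat natural, F female, M male). Points are libraries and black lines group means. Cd36 (females 40.3 to 198, males 11.9 to 38.6) and Acsl1 (616 to 1210 and 1590 to 2390) separate the sexes, and the other 4 genes overlap.

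The sex difference of the whole list depended on scaling and on the 2 smallest libraries. With library size alone, 8 of 40 genes were above 0 and 32 below. Their median there was -0.23, close to the median of all genes, which moved to -0.221. With both smallest libraries left out, 10 were above 0, with a median of -0.21 on the log2 scale. With all 12 libraries, 49% of all genes were above 0, and their share in these other fits is not given here. Other measures differed between the sexes in the same libraries. The Kupffer cell markers summed to 381 to 607 CPM in females and 205 to 420 in males, and 3 of 10 were called lower in males, against 3.63% of all genes. That of 10 lymphocyte markers was 15.4 to 23.5 CPM in females and 8.07 to 12.7 in males, with 3 of 9 tested called lower. Stellate cell markers summed to 393 to 532 CPM in females and 275 to 398 in males, with 3 of 10 called lower. Their collagen genes Col1a1, Col3a1 and Col1a2 went the other way, with log2 differences, male minus female, of 1.24, 0.58 and 0.41, not called. The rest of the stellate markers were below 0. Endothelial markers summed to 382 to 474 CPM in females and 296 to 400 in males, with 0 called. Cholangiocyte markers ranged over 40.0 to 200 CPM, with 0 of 8 tested called. Pancreas markers summed to 8.69 to 28.2 CPM in females and 24.4 to 42.3 in males. Of these 10, Cela1 alone was tested (adjusted p of 0.0592 in edgeR, higher in males), and Prss2, Cela3b and Cpb1 had no counts in any library. Of 15 tested clock genes, Arntl was called lower and Per2 higher in males. Arntl stood at 15.5 and 22.2 CPM in natural female replicates 1 and 2 and at 2.10 to 6.69 in the other libraries, and the hour of collection is not in the labels. The part of these in the sex differences was not tested.

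Promoters of the 3 genes called between the sexes are shown, as the 250 bases before the start site in the RefSeq table of GRCm38.p6. The table holds 2 windows for Acsl1, of which the more upstream is shown. The windows are chr5:17835897-17836146 (minus strand) for Cd36, chr8:46470787-46471036 (plus) for Acsl1 and chr12:84038129-84038378 (plus) for Acot4. In GENCODE M21 none of the 3 overlaps an exon, and that of Cd36 lies within the body of its gene. Capitals mark the hexamer AGGTCA, the core that nuclear receptors such as PPAR-alpha recognise, or its reverse complement TGACCT.
Cd36: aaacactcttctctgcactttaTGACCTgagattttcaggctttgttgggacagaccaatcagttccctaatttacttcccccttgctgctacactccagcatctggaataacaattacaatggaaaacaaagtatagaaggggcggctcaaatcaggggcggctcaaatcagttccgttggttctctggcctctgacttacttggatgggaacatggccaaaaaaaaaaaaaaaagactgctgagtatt
Acsl1: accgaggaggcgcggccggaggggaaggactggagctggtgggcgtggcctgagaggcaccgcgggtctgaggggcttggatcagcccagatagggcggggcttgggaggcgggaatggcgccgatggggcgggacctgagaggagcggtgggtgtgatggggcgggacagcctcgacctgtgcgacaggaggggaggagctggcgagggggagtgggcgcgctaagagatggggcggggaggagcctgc
Acot4: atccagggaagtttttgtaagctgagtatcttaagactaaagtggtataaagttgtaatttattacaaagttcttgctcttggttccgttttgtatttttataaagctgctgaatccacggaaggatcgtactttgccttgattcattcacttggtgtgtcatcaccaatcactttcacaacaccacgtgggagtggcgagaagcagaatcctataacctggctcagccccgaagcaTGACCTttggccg
The hexamer was searched on both strands in 38 promoters that the table holds for 35 of the 40 genes. It was found in 7 of 38 (18.4%), against 14% of 32851 promoters of all genes. The direct repeat AGGTCANAGGTCA, in which PPAR-alpha and RXR bind side by side and which itself contains the hexamer, was found in 0 of 38 and in 0.0335% of all promoters. The palindrome TTCNNNGAA, which STAT factors recognise, was found in 3 of 38 (7.89%) and in 7.02% of all. A match is a description of these letters only, and sites farther away are not in these windows.

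The rest of the pathway was followed in 3 further lists. None of 24 tested other PPAR-alpha targets, 39 other oxidation enzymes and 25 regulators was called after IVF in females, where edgeR called 0% of all genes. In females 8 of the 24 targets and 32 of the 39 enzymes had a fold change above 0, with medians of -0.210 and 0.181 beside -0.015 for all genes. In males 15 of 24 and 17 of 39 were above 0, with medians of 0.114 and -0.040 beside 0.010. The regulators had medians of -0.017 in females and -0.091 in males. A single enzyme gene, Abcd2, passed after IVF in males. Abcd2, a peroxisomal carrier of very long chain fatty acids, was at 0.731, 0.549 and 0.593 CPM in natural males and 9.61, 6.20 and 7.31 in IVF males. That was a log2 change of 3.61 ± 0.35 (SE) with an adjusted p of 0.00381 in edgeR, and the call was lost without natural male replicate 2 or 3 (adjusted p up to 0.106). Females had 74.1 to 191 CPM.

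Between the sexes, 4 of the 24 targets, 6 of the 39 enzymes and 1 of the 25 regulators were called by edgeR, against 7.2% of all genes. The thioesterase row on chromosome 12 goes on with Acot3 and Acot5, which lie just past Acot4 at chr12:84052144-84060402 and chr12:84069325-84076020, and with Acot6 at chr12:84100654-84111349. Acot3 was at 93.4, 107 and 256 CPM in natural females and 118, 307 and 242 in IVF females. It was at 10.5, 5.99 and 1.54 CPM in natural males and 10.1, 7.13 and 16.0 in IVF males, which was 22.6-fold lower in males (adjusted p of 0.000185 in edgeR). Acot5 had 2 to 40 counts per library in females and 0 to 2 in males, and was called lower in males. Acot6, which is on none of the lists and was added after its values were seen, had 8 to 96 counts in females and 6 to 25 in males. Its log2 difference, male minus female, was -1.39 ± 0.36 (SE; adjusted p of 0.0402 in edgeR), and the call was lost in 11 of the 12 fits without a library, all but that without natural female replicate 2. Of the thioesterase genes on the lists, Acot4, Acot3 and Acot5 were called lower in males and Acot1 and Acot2 were not. Over all genes 3.63% were called lower. Acot6 is left out of that comparison because its values led to its choice. The lists too were chosen with earlier results known, so the comparison is a description and no test of the row. The calls of Acot4 and Acot6 depended on single libraries. Natural male replicate 3 had the lowest male level of Acot2, Acot1, Acot4 and Acot3.

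**Figure D5:**
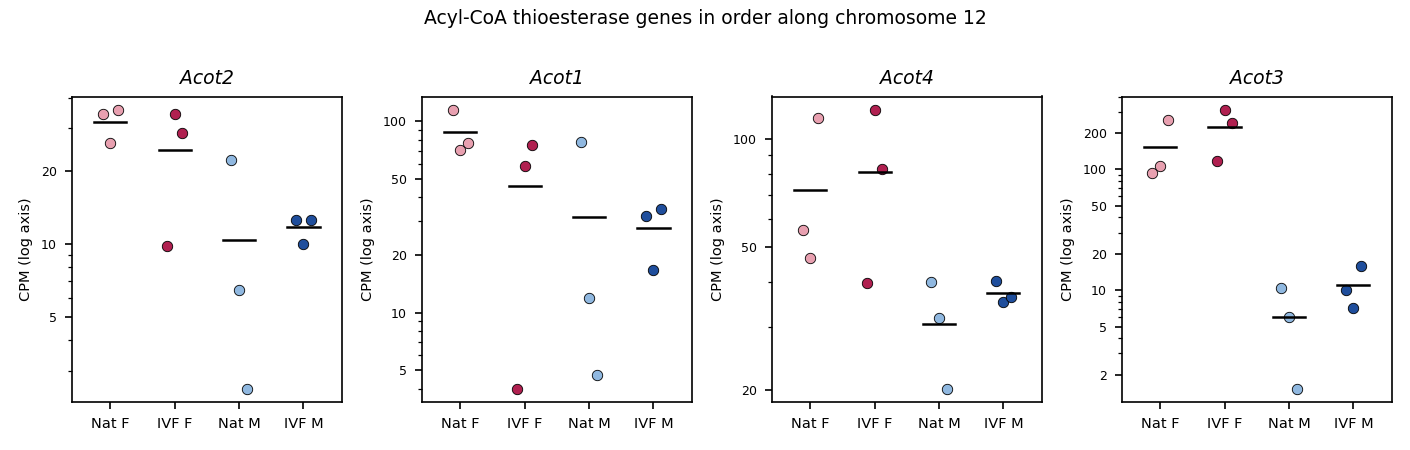
Level in CPM (vertical log axis) of 4 neighbouring thioesterase genes of chromosome 12, left to right in their order along it, in each library by group (Nat natural, F female, M male). Points are libraries and black lines group means. Acot3 separates the sexes (females 93.4 to 307, males 1.54 to 16.0), and Acot4, Acot1 and Acot2 overlap.

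The microsomal omega-hydroxylases Cyp4a10 and Cyp4a14 are standard readouts of PPAR-alpha activity in mouse liver. Cyp4a10 was at 862, 1360 and 1140 CPM in natural females and 248, 1060 and 1140 in IVF females. It was at 49.1, 129 and 15.7 CPM in natural males and 270, 22.6 and 293 in IVF males, and was 8.52-fold lower in males (adjusted p of 0.0175 in edgeR). Cyp4a14 was 8.95-fold lower in males on average, with an adjusted p of 0.0763 in edgeR and 0.0129 in DESeq2. Its log2 difference, male minus female, was -3.16 ± 0.98 (SE) on average and -1.25 ± 1.30 within IVF animals. For Cyp4a10 these values were -3.09 ± 0.66 and -2.07 ± 0.90. The interaction for Cyp4a14 was 3.82 ± 1.87 (SE, log2), with an unadjusted p of 0.0643 in edgeR. The IVF change of Cyp4a14 in females was -0.38 ± 1.28 (SE, log2). It was at 12.2, 67.2 and 1.38 CPM in natural males and 382, 8.07 and 487 in IVF males. Its IVF change in males, 3.44 ± 1.41 (SE, log2), had an adjusted p of 1 in edgeR, and IVF male replicate 2 lay within the range of natural males. Fgf21, a fasting hormone under PPAR-alpha control, had its highest values of 7.69 and 5.66 CPM in the same IVF male replicates 1 and 3. Within the list of 40, Acot1, Acot2 and Acot4 had their lowest IVF male value in replicate 2, and Vnn1, Acaa1b and Pdk4 did not. The list as a whole was not low there. Its median deviation was 0.13 (log2) in IVF male replicate 2, against 0.09 in replicate 1 and -0.08 in replicate 3.

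Plin2 and Angptl4, both PPAR-alpha targets, did not divide the groups. The lipid droplet gene Plin2 ranged over 114 to 282 CPM. Angptl4, an inhibitor of lipoprotein lipase, ranged over 22.6 to 258 CPM with its highest value in natural male replicate 1. Neither was called in any comparison. Scp2, a peroxisomal thiolase and sterol carrier, was 2.16-fold higher in males, at 2190 to 3230 CPM against 1130 to 1510 in females (adjusted p of 0.00135 in edgeR). Nudt7, a hydrolase of peroxisomal coenzyme A, was 5.15-fold higher in males (adjusted p of 0.000121), at 350 to 506 CPM against 46.5 to 155. Acsl4, which activates arachidonic acid, was 1.88-fold higher in males (adjusted p of 0.0193). Hacl1, which cleaves branched chains in peroxisomes, was 1.84-fold lower (adjusted p of 0.011) and Acad9, a factor for respiratory complex assembly, 1.48-fold lower (adjusted p of 0.0362).

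The coactivator gene Ppargc1a was 2.63-fold lower in males, at 3.30 to 12.8 CPM against 10.5 to 31.8, with an adjusted p of 0.0475 in edgeR that rose to as much as 0.119 when libraries were left out. The call was lost in 10 of the 12 such fits, all but those without IVF male replicate 2 or natural female replicate 1. Cidec, a lipid droplet protein, was 2.40-fold higher in males (adjusted p of 0.0279), at 1.78 to 5.22 CPM against 0.831 to 2.14. Its call was lost without IVF female replicate 2, IVF male replicate 1 or 3, or natural male replicate 1. That of Acad9 was lost in 8 of the 12 such fits (adjusted p up to 0.101), all but those without IVF female replicate 1, IVF male replicate 2, or natural female replicate 2 or 3. That of Acsl4 was lost without IVF male replicate 3 (adjusted p of 0.0525). The calls of Abcd2, Acot3, Acot5, Cyp4a10, Scp2, Nudt7 and Hacl1, held in every leave-out of the sex comparison.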

How the data were processed

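The authors' deposited table gives whole-number read counts per gene symbol, 1 column per library. The submitters' processing notes name Trimmomatic 0.32, STAR 2.3.0e, featureCounts 1.5.0 and mm10. The annotation and the use of strand are not given in the sources used here, so antisense reads cannot be told apart. Counts were tested with edgeR 4.0.16 in R 4.3.3 (filterByExpr, TMM, quasi-likelihood test, 1 mean per group over 12 libraries, 7 contrasts, Benjamini-Hochberg adjustment over 13204 genes). CPM are TMM-scaled, and standard errors are the fold change over the root of F. DESeq2 1.42.0, limma 3.58.1 (voom), other scalings, filters, a covariate for the 2 smallest libraries and each library left out were alternatives, and a GC offset was added after seeing the data. The code was tested on simulated data.

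The 40 genes, the 3 further pathway lists and the marker and clock lists were chosen with earlier results of these data known. Named with values in every library were the genes called, the 5 of smallest p in each IVF comparison and between the sexes, and 11 fixed genes, among other pathway genes those called and 10 fixed ones, of which 2 are not reported here. Positions are from GENCODE M21 (GRCm38), which matches the named build.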

Additional observations from a re-analysis of the deposited data

How the results depend on the processing

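No paired analysis was possible because the labels give no replicate numbers and a single pair of titles shares a code, whose meaning they do not give. Of 60 fold changes printed or tested for named genes, 58 kept their direction under every setting. Slc25a20 after IVF in females was -0.48 to 0.10 without single libraries, the 0.10 without natural female replicate 2, and turned to 0.22 with both smallest libraries left out, where Hadhb turned to 0.09, and the cause was not tested. Of 29 called fold changes, 14 lost the call under at least 1 setting. Between the sexes on average, the number of the 40 genes called was 5 at an adjusted p under 0.1, 8 with library size alone, 6 with DESeq2 and 5 with a covariate for the 2 smallest libraries, and 2 to 6 without single libraries. Over all genes it was 951, against 1626 at an adjusted p under 0.1, 1625 with library size alone, 1693 with DESeq2 and 519 to 810 without single libraries. Within natural animals 2 of the 40 were called with DESeq2 (5.13% of all genes), 1 with the covariate and 0 to 1 without single libraries. Within IVF animals the number was 2 at an adjusted p under 0.1, 2 with DESeq2 and 3 with the covariate. It was 0 with voom, the GC offset or a fit to the 6 libraries compared, and 0 to 1 without single libraries. In the main edgeR fit 1.77% of all genes were called within natural and 2.19% within IVF animals. Other shares over all genes under these settings are not given here. The median over the 40 genes was -0.374 within natural animals with library size alone, where that of all genes was -0.336. It was -0.287 within IVF animals with both smallest libraries left out and -0.286 to 0.182 without single libraries, and for the interaction -0.167 to 0.249. In IVF female replicate 1, Acot1 rests on 27 counts and Acot2 on 66. Acot8 had its lowest levels in the 2 smallest libraries, and Pdk4 was low in every library, so both rest on few reads.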
